A study of Mus musculus with 10 samples.

Results

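The comparison set 3 ovaries of old mice treated with cell-free fat extract (CEFFE) against 3 ovaries of old mice left without it. They were chosen by their labels alone and are 6 of the 10 ovaries in the series, each of which gave its own library. The treated ovaries (Aged+CF) are replicates 30, 32 and 34, the untreated ones (Aged) are replicates 31, 33 and 34, and the other 4 are from young mice (Control). All mice had the C57BL/6J background, the old mice of both groups were 11 months old by the labels and the Control mice 8 weeks old. CEFFE is the watery, protein-bearing layer that remains once fat tissue has been emulsified and its cells and lipid spun out. The Aged+CF mice received repeated injections of 200 μL of it, at a protein concentration of 3 μg/μL, into the tail vein, and the Aged and Control mice received saline. Every mouse was primed with 10 IU of PMSG, a gonadotropin that drives follicle growth, and ovaries were taken 48 h later into DMEM/F12. The question was which genes, pathways and cell types differ between treated and untreated old ovaries, and how far each difference hangs on a single untreated ovary.

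An ovary holds oocytes, the granulosa and theca cells that surround them in follicles, the corpora lutea that follicles turn into after ovulation, and stroma, vessels and immune cells. With age the store of follicles runs down, luteal and fibrous tissue take up more of the organ, and lymphocytes and foamy macrophages gather in it. RNA from a whole ovary therefore mixes many cell types, and fewer cells of a type and less RNA per cell cannot be told apart here. The reads counted on genes numbered 17306694, 16295044 and 18137568 in Aged 31, 33 and 34 and 17023099, 17450630 and 21318254 in Aged+CF 30, 32 and 34, beside 15761789 to 18831795 in Control. The unit CPM stands for counts brought to a common library size with edgeR's TMM factors, and log2 fold changes are those of Aged+CF over Aged, with ± for the standard error.

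Ovarian markers were present in all 6 old ovaries, with a single weak point. The steroid enzyme Cyp11a1, which makes pregnenolone from cholesterol, had 10048, 13665 and 6506 CPM in Aged 31, 33 and 34 and 5061, 7634 and 5764 CPM in Aged+CF 30, 32 and 34. The granulosa transcription factor Foxl2 had 346, 351 and 311 CPM in Aged and 249, 326 and 248 CPM in Aged+CF. The oocyte coat gene Zp3, in contrast, had 14.5, 12.6 and 0.937 CPM in Aged and 25.1, 18.8 and 31.5 CPM in Aged+CF, so Aged 34 held very little oocyte RNA. Amh, the hormone of granulosa cells in growing follicles, had 90.2, 131 and 3.25 CPM in Aged and 149, 165 and 160.0 CPM in Aged+CF, and Aged 34 was again far below the rest. The Aged ovaries were also the least alike. Their biological coefficient of variation was 0.378, against 0.193 in Aged+CF and 0.209 in Control, and it was 0.268 between Aged 31 and 33, 0.367 between Aged 31 and 34 and 0.467 between Aged 33 and 34. In Aged 33, 5.94% of the counts fell on genes of the mitochondrial genome, against 3.91% in Aged 31, 3.55% in Aged 34 and 2.98% to 3.49% in Aged+CF.

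Many genes differed by a modest amount and few could be told from noise gene by gene. A gene is called a DEG here if its fold change reached 1.5 and its unadjusted p in the edgeR quasi-likelihood test was under 0.05. Of 18956 genes tested, 741 were DEGs higher in Aged+CF (3.91%) and 768 were DEGs lower in it (4.05%). At any fold, 3096 genes fell under that p, where 948 would do so by chance. At a fold change of 1.5 or more and an adjusted p under 0.05, 1 gene was left (0.00528%). Limma voom with a weight per group left 2. The DESeq2 Wald test left 445, but it was run on 36618 genes, without the filter on low counts. In 1930 genes (10.2%) all 3 Aged+CF values lay above all 3 Aged values, and in 1590 genes (8.39%) all lay below. The median log2 fold change over all genes tested was -0.02, and each list of genes described here is to be read against these shares and this median.

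The calls leaned on single ovaries of both groups and were fewer without the Control ovaries in the fit. With only the 6 old ovaries there were 428 higher and 583 lower DEGs, of 18053 genes tested. Refitting without Aged 31 gave 889 higher (4.54%) and 976 lower DEGs (4.99%), and refitting without Aged 33 gave 770 (3.92%) and 778 (3.96%). Without Aged 34 there were 1096 higher (5.67%) and 1264 lower DEGs (6.54%), and 138 higher (0.713%) and 418 lower genes (2.16%) at adjusted p. Of the 1509 DEGs of the full comparison, 1132 were called again without Aged 31, 914 without Aged 33 and 1067 without Aged 34, and 524 (34.7%; 309 higher and 215 lower) in all 3 of these fits. A further 282 were lost only when Aged 33 was left out, 237 only without Aged 34 and 74 only without Aged 31. Leaving out Aged+CF 30, 32 or 34 kept 938, 1049 and 877 of the 1509, and 436 (28.9%) were called whichever of the 6 old ovaries was left out. The fits without Aged+CF 30, 32 and 34 tested 19561, 19610 and 19651 genes. They gave 540, 784 and 554 higher and 653, 712 and 616 lower DEGs. Counts of a list in these fits are to be read against those totals. Aged 33 was the untreated ovary farthest from the mean of Aged+CF in 9345 genes (49.3%), Aged 34 in 6258 (33.01%) and Aged 31 in 3353 (17.7%). In 966 genes (5.10%) Aged 34 lay above the range of Aged+CF while the other 2 Aged ovaries lay below it, and in 804 (4.24%) the reverse held. The same split gave 440 and 390 genes for Aged 33 and 258 and 255 for Aged 31.

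Among DEGs without overlap at a mean of at least 1 CPM, the largest rises were those of Gm22133 and Gm10774 (log2 fold changes 12.1 and 3.51). Gm22133 had 0.0551 to 0.0705 CPM in Aged and 252 to 391 CPM in Aged+CF, but also 251 CPM in Control 32. The largest falls were those of Pet117, Usp50 and Aoc1 (-6.42, -5.16 and -4.70). Among other DEGs without overlap, several held in every fit that left an ovary out. Ptprn (ENSMUSG00000026204, chromosome 1, 75247027 to 75264502), which encodes a membrane protein of secretory granules, had 0.537, 0.564 and 0.827 CPM in Aged 31, 33 and 34 and 2.69, 3.91 and 5.25 CPM in Aged+CF 30, 32 and 34. The groups were well apart, with a log2 fold change of 2.601 ± 0.48 (adjusted p = 0.15 by edgeR). Slco1a1 (ENSMUSG00000041698, chromosome 6, 141907282 to 141946962), a transporter of organic anions and steroid conjugates, had 0.358, 0.212 and 0.496 CPM in Aged and 1.38, 2.64 and 1.41 CPM in Aged+CF (log2 fold change 2.30 ± 0.48, adjusted p = 0.151 by edgeR). Vcan (ENSMUSG00000021614, chromosome 13, 89655312 to 89742509), the matrix proteoglycan versican, had 89.2, 37.9 and 50.6 CPM in Aged and 157, 119 and 166 CPM in Aged+CF, and every treated ovary was above every untreated one (log2 fold change 1.32 ± 0.26, adjusted p = 0.15 by edgeR). Zfp469 (ENSMUSG00000043903, chromosome 8, 122269569 to 122272650), annotated as a long noncoding RNA gene, had 2.56, 0.635 and 2.98 and 13.3, 8.21 and 17.9 CPM in the same order, with the lowest value in Aged 33 (log2 fold change 2.65). The homeobox gene Gbx2 had 0.298, 0.776 and 0.110 CPM in Aged and 2.58, 1.61 and 1.31 CPM in Aged+CF, and its log2 fold change of 2.25 became 3.13 without Aged 33. Edn2, the endothelin that follicles make around ovulation, had 0.358, 0.494 and 0.441 and 1.43, 0.632 and 6.23 CPM. Its groups did not overlap, but 1 treated ovary carried most of the difference, since the log2 fold change of 2.68 was 1.24 and no longer a DEG without Aged+CF 34.

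Of the genes lower in Aged+CF, Pet117 (ENSMUSG00000098387, chromosome 2, 144368996 to 144373721), a factor for cytochrome oxidase assembly that overlaps Kat14 on the same strand, was the single gene past the adjusted threshold (edgeR adjusted p = 8.49e-05). It had 68, 84 and 100 counts in Aged 31, 33 and 34 and exactly 1 count in each other ovary, which gives a ratio of 96.2 (95% exact Clopper-Pearson interval 32.5 to 469) of Aged over Aged+CF. That interval covers counting error alone and not the spread between ovaries, and it takes each 1 as a true count. In all 4 Control ovaries Gm10774 had the same CPM as Pet117, and so did Gm22133 in Control 31, 33 and 34. Why this low value recurs was not tested. Gene overlap matters for such values, because it is not stated whether reads were counted by strand. A2m (ENSMUSG00000030111, chromosome 6, 121635376 to 121679227), a broad inhibitor of proteases, had 19.9, 35.6 and 7.28 CPM in Aged 31, 33 and 34 and 3.55, 1.90 and 1.55 CPM in Aged+CF 30, 32 and 34. Its groups were apart in every ovary, with a log2 fold change of -3.17 ± 0.78 (adjusted p = 0.161 by edgeR) that was -2.55 without Aged 33. AU021092 (ENSMUSG00000051669, chromosome 16, 5211823 to 5222299) showed a different shape, with 62.6, 206 and 279.8 CPM in Aged and 61.7, 55.02 and 52.2 CPM in Aged+CF, so that Aged 31 stood next to the treated ovaries while Aged 33 and 34 were several times higher (log2 fold change -1.70 ± 0.42, adjusted p = 0.161 by edgeR). Ccdc162 had 2.86, 3.10 and 9.26 and 0.745, 0.574 and 0.422 CPM, a log2 fold change of -3.13 that was -2.37 without Aged 34. A few genes had a single untreated ovary on the treated side. E130102H24Rik, which overlaps Mir101a, had 0.179, 4.52 and 0.110 CPM in Aged and 7.17, 5.23 and 5.48 CPM in Aged+CF, and its log2 fold change of 1.94, not a DEG, was 5.31 without Aged 33. The pseudogene Rps2-ps10, which can share reads with its parent gene, had 0.656, 0.847 and 37.4 CPM in Aged and 58.9, 59.5 and 58.6 CPM in Aged+CF. Aged 34 was near the treated ovaries there, and the log2 fold change, not a DEG, went from 2.17 to 6.28 without it. Btbd2 had 93.0, 83.5 and 39.9 CPM in Aged and 38.4, 39.2 and 36.5 CPM in Aged+CF, again with Aged 34 next to the treated group (log2 fold change -0.92, and -1.23 without Aged 34).

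Oocyte lists had medians above 0, and much of the distance came from Aged 34. The zona pellucida is the glycoprotein coat of the oocyte, and Gdf9 and Bmp15 are growth factors by which the oocyte drives granulosa cells. All 9 genes of the coat and of secreted oocyte factors were higher in Aged+CF, with a median log2 fold change of 1.39. Summed over the list, the level was 74.9, 72.7 and 7.28 CPM in Aged 31, 33 and 34, 119, 98.7 and 158 CPM in Aged+CF 30, 32 and 34 and 266, 364, 274 and 348 CPM in Control 31, 32, 33 and 34. Aged 34 was thus far below the other untreated ovaries, which in turn were below every treated ovary, and all treated ovaries stayed below the young ones. Bmp15 (ENSMUSG00000023279, chromosome X, 6314107 to 6320721) had 8.35, 8.75 and 0.496 CPM in Aged and 15.3, 12.9 and 17.7 CPM in Aged+CF without overlap (log2 fold change 1.39 ± 0.65, adjusted p = 0.32 by edgeR). Gdf9, the member with the most counts, had 22.5, 25.7 and 3.64 and 36.2, 29.1 and 45.0 CPM, again without overlap, and a log2 fold change of 1.09 that was 0.59 without Aged 34. Of the 9 genes, 5 did not overlap between the groups but 1 was a DEG, Zp1, with 8.05, 5.43 and 0.607 and 11.6, 9.42 and 17.0 CPM. Its call was lost without any 1 of the Control ovaries, Aged 33, Aged+CF 30 or Aged+CF 34. In all, 3, 5 and 5 genes were DEGs without Aged 31, 33 and 34 and 0, 1 and 0 without Aged+CF 30, 32 and 34. Their median log2 fold change was 1.48, 1.65 and 0.82 without Aged 31, 33 and 34, so Aged 34 enlarged the difference and did not make it on its own.

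In the maternal-effect, Nlrp and transcription factor lists Aged 34 was again lowest, while Aged 31 and 33 were closer to the lowest treated ovary. Maternal-effect genes make proteins that the early embryo needs and that the oocyte lays down. Their median log2 fold change was 0.97, and 5 of 12 were DEGs (4, 6 and 4 without Aged 31, 33 and 34, and 3, 6 and 1 without Aged+CF 30, 32 and 34). Ooep (ENSMUSG00000032346, chromosome 9, 78376109 to 78378725), a part of the subcortical complex of the egg, had 6.38, 6.70 and 3.75 CPM in Aged and 10.7, 8.96 and 13.4 CPM in Aged+CF. Its groups were apart and its call held in every fit with an ovary left out (log2 fold change 0.98 ± 0.27, adjusted p = 0.175 by edgeR). Padi6, another part of that complex, had 29.7, 18.1 and 2.70 and 47.4, 36.8 and 66.8 CPM, a log2 fold change of 1.58 that was not a DEG without Aged 33 (1.62) or Aged+CF 34 (1.31) and was 2.27 without Aged 31. Of 9 oocyte Nlrp genes, a family of close paralogs whose reads can be misplaced among copies, 6 were DEGs (3, 5 and 6 and 2, 5 and 1 in the 6 fits in the same order), and the median was 1.31. Among 6 tested transcription factors of the oocyte, 2 were DEGs (2, 3 and 2 without Aged 31, 33 and 34, and 1, 1 and 1 without Aged+CF 30, 32 and 34) and the median was 0.91. Without Aged 34 the medians of the maternal-effect, Nlrp and transcription factor lists were 0.49, 0.76 and 0.42, all still above 0.

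Genes that hold the oocyte in meiotic arrest or let it mature had a median log2 fold change of 0.79 over 13 genes, all of them higher, and 0.32 without Aged 34, and 2 were DEGs. These were Gpr3 and Ybx2, and both calls held whichever ovary was left out. Gpr3 (ENSMUSG00000049649, chromosome 4, 133209340 to 133212536), the receptor whose signal keeps the oocyte arrested, had 0.298, 0.494 and 0.276 CPM in Aged and 1.03, 0.574 and 0.937 CPM in Aged+CF (log2 fold change 1.26 ± 0.41, adjusted p = 0.205 by edgeR). Ybx2 (ENSMUSG00000018554, chromosome 11, 69935796 to 69941605), which binds and stores messenger RNA in the oocyte, had 4.18, 3.74 and 1.49 and 5.68, 6.43 and 8.67 CPM (log2 fold change 1.15 ± 0.35, adjusted p = 0.194 by edgeR). In both genes the groups did not overlap, and for Gpr3 the 3 Aged ovaries were close together, Aged 34 included. Of 16 germ granule and piRNA genes, which silence transposons in germ cells, 13 were higher and 3 lower, and 4 were higher DEGs (5, 4 and 2 without Aged 31, 33 and 34, and 2, 2 and 1 without Aged+CF 30, 32 and 34) and the median was 0.75. Their summed level overlapped, with 104, 95.7 and 70.3 CPM in Aged and 104, 94.0 and 129.7 CPM in Aged+CF. Tdrd1, a scaffold of those granules, had 2.80, 3.67 and 0.551 CPM in Aged and 5.79, 5.86 and 8.11 CPM in Aged+CF and stayed a DEG in each of these fits. Genes of the synaptonemal complex and of meiotic recombination, which act before birth in the female, were mostly near the floor, and 10 of 21 were tested, 6 of them higher and 4 lower. Their summed level was highest in Aged 34, with 45.5, 38.5 and 58.7 CPM in Aged 31, 33 and 34. It was 47.2, 48.8 and 47.6 CPM in Aged+CF 30, 32 and 34. Their median was 0.53, -0.07 with only the old ovaries in the fit, 0.13 without Aged+CF 32 and 1.10 without Aged 34, and 3 were DEGs (3, 2 and 5 without Aged 31, 33 and 34, and 3 in each fit without an Aged+CF ovary). The cohesin subunit Smc1b, with 0.298, 0.0705 and 0.110 and 0.688, 0.459 and 0.797 CPM, was among them in each fit, with a log2 fold change of 1.96 that was 2.72 without Aged 31.

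Genes of cell division formed the other large block higher in Aged+CF. In a follicle it is mostly granulosa cells that divide, so these genes track follicle growth. The median log2 fold change of 34 mitosis genes was 0.83, 33 of them were higher in Aged+CF, 16 without overlap, and 14 were DEGs. Mki67 (ENSMUSG00000031004, chromosome 7, 135689784 to 135716361), the standard marker of cycling cells, had 59.8, 41.3 and 21.3 CPM in Aged 31, 33 and 34, 105, 71.5 and 111 CPM in Aged+CF 30, 32 and 34 and 137 to 181 CPM in Control. The treated ovaries lay between the untreated old and the young ones without overlap (log2 fold change 1.23 ± 0.32, adjusted p = 0.168 by edgeR). The spindle checkpoint kinase Bub1b (ENSMUSG00000040084, chromosome 2, 118598211 to 118641591) had 24.3, 24.3 and 9.54 CPM in Aged and 42.6, 32.97 and 47.7 CPM in Aged+CF (log2 fold change 1.09 ± 0.31, adjusted p = 0.178 by edgeR). The kinetochore gene Cenpf (ENSMUSG00000026605, chromosome 1, 189640606 to 189688086) had 23.5, 13.0 and 6.67 and 31.9, 28.6 and 39.2 CPM (log2 fold change 1.21 ± 0.35, adjusted p = 0.178 by edgeR). Aged 34 was the lowest ovary in each of these genes, and the calls of all 3 held with any ovary left out. Anln, a scaffold of the cleavage furrow, had 22.9, 17.2 and 11.8 and 28.5, 25.8 and 35.4 CPM and a log2 fold change of 0.79, which was 0.56 and no longer a DEG without Aged 34. The list had 17, 25 and 10 DEGs and a median of 1.001, 1.15 and 0.42 without Aged 31, 33 and 34, and 11, 17 and 8 DEGs without Aged+CF 30, 32 and 34. The median level of the list in each ovary, relative to the mean of Aged+CF, was -0.47, -0.38 and -1.995 on the log2 scale in Aged 31, 33 and 34.

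**Figure D1:**
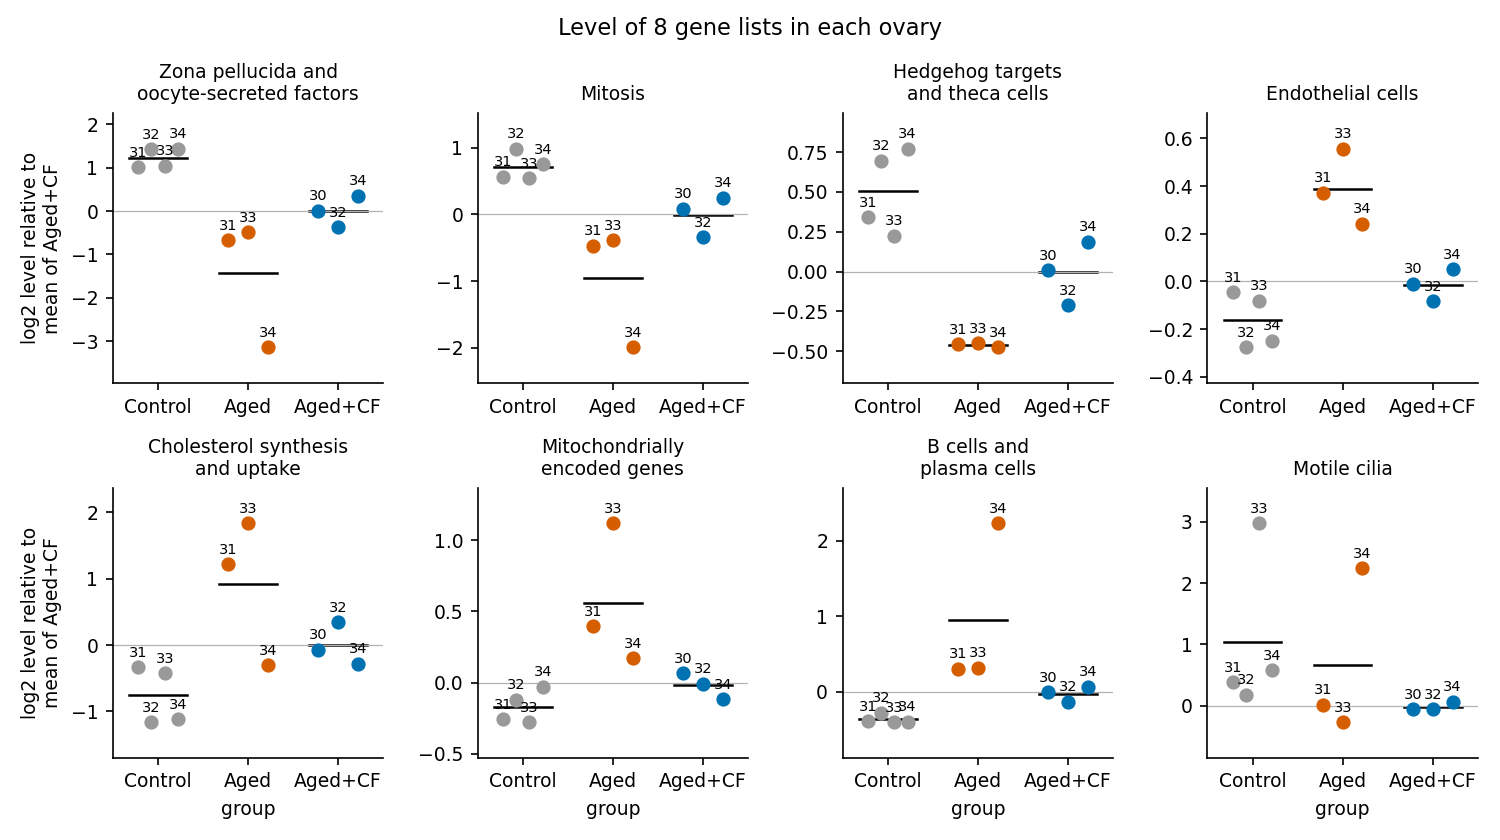
Level of 8 gene lists in each ovary, as the median over the list of the log2 difference from the mean of the Aged+CF ovaries, with a point for each ovary, labelled by replicate, and a bar at the group mean. Aged 34 stands below the other Aged ovaries for oocyte coat and mitosis genes and above them for B cell and cilia genes. Aged 33 is highest for mitochondrially encoded genes. For the list of Hedgehog targets and theca cells and for endothelial genes, the 3 Aged ovaries lie on the same side of all Aged+CF ovaries.

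Many promoters of the division genes carry an element by which such genes are known to be switched on late in the cell cycle. From RefSeq tables on GRCm38.p6, 28 of the 34 mitosis genes had a promoter of 300 bases, from 250 before to 50 after the start. Both strands were searched, and the motifs do not overlap in the promoters shown. The core of the cell cycle homology region, TTTGAA, was found in 20 of the 28 genes, or 22 of their 30 promoters, and in 17.9% of the 32851 promoters in the table. The box CCAAT, bound by the factor NF-Y, was found in 20 of the 28 genes, also 22 of the 30 promoters, and in 37.4% of all promoters. Those of Mki67 (chr7:135716330-135716629, minus strand), Bub1b (chr2:118597961-118598260, plus strand), Cenpf (chr1:189688037-189688336, minus strand) and Anln (chr9:22389157-22389456, minus strand) are shown as the promoters of the genes with values above. They run 5′ to 3′ along the gene, with matches to either motif or its reverse complement in capitals, and a match describes the letters only.
Mki67: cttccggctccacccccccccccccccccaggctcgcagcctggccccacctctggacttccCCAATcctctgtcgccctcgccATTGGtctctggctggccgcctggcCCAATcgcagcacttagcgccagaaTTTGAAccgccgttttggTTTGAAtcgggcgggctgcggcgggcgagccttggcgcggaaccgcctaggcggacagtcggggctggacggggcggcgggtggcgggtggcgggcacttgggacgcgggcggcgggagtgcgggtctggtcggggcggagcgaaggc
Bub1b: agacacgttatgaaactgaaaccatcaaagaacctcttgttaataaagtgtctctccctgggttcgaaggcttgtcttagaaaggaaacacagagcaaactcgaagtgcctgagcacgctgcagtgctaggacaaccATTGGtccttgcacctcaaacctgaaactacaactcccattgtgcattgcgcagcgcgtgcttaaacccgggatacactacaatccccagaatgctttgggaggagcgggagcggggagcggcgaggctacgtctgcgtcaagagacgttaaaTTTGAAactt
Cenpf: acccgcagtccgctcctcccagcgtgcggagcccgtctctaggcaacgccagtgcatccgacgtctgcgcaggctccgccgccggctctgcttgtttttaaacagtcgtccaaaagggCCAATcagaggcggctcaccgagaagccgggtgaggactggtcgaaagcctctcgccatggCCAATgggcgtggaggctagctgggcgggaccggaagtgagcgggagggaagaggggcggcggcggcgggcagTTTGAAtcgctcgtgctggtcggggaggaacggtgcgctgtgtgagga
Anln: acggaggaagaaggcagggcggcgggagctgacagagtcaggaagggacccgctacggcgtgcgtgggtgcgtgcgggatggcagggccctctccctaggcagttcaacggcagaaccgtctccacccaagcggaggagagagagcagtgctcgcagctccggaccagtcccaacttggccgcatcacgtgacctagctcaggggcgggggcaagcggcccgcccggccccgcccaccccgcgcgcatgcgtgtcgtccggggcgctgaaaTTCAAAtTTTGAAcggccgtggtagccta

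DNA replication genes were mostly higher in Aged+CF by less, and the repair lists differed in their share of DEGs. Of 43 replication genes, 37 were higher in Aged+CF, 19 without overlap, 7 were DEGs and the median was 0.30. Pole, the catalytic subunit of a leading strand polymerase, had 12.6, 8.96 and 6.07 CPM in Aged and 22.1, 12.8 and 18.2 CPM in Aged+CF, with the groups just apart, and was called in each fit with an ovary left out (log2 fold change 0.94 ± 0.28, adjusted p = 0.184 by edgeR). The count of DEGs was 7, 14 and 4 without Aged 31, 33 and 34 and 3, 7 and 3 without Aged+CF 30, 32 and 34, and the median was 0.15 without Aged 34. Homologous recombination mends double strand breaks with the sister copy as template, and 8 of its 37 genes were DEGs, 12 were higher without overlap and the median was 0.26. That median moved little, with 0.32, 0.25 and 0.22 without Aged 31, 33 and 34, and the count was 10, 9 and 6 in those fits. The BRCA1 partner Bard1 had 4.24, 3.03 and 2.095 CPM in Aged, 7.34, 5.80 and 7.50 CPM in Aged+CF and 9.28 to 12.03 CPM in Control, and was called in each fit. Of 14 Fanconi anemia genes, which act on DNA crosslinks, 4 were DEGs and the median was 0.14 (3, 5 and 2 DEGs without Aged 31, 33 and 34, and 2, 4 and 3 without Aged+CF 30, 32 and 34). Fancd2, which overlaps Fancd2os on the other strand, had 5.01, 5.36 and 1.93 and 9.002, 7.70 and 9.66 CPM and was called in each fit. End joining and checkpoint genes had a median of 0.18 over 19 genes and base, nucleotide and mismatch repair genes one of 0.14 over 32. In these 2 lists 1 gene each was a DEG, Clspn, a mediator of the replication checkpoint, with 5.43, 5.15 and 2.48 and 11.7, 7.41 and 8.20 CPM, in the former. Several abundant repair genes differed without overlap by less than the fold limit. Msh6, which finds mismatched bases, had 46.1, 49.6 and 47.0 CPM in Aged and 61.3, 58.5 and 67.0 CPM in Aged+CF (log2 fold change 0.39 ± 0.09, adjusted p = 0.161 by edgeR), and the 3 Aged ovaries were within a few CPM of each other.

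Granulosa cells, which nurse the oocyte and make estrogen, differed in some of their genes. Of 14 markers, 9 were higher and 5 lower in Aged+CF, 2 were higher DEGs and the median was 0.22, a value that was -0.01 without Aged 34. Their summed level overlapped, with 5771, 6593 and 4517 CPM in Aged and 6693, 4061 and 5887 CPM in Aged+CF. Esr2 (ENSMUSG00000021055, chromosome 12, 76120419 to 76177259), the estrogen receptor of granulosa cells, had 65.9, 49.1 and 28.6 CPM in Aged and 115, 71.2 and 137 CPM in Aged+CF without overlap and was called in each fit (log2 fold change 1.17 ± 0.30, adjusted p = 0.168 by edgeR). Fshr, the receptor by which FSH drives follicles, had 10.7, 9.10 and 12.6 CPM in Aged and 25.3, 10.8 and 22.3 CPM in Aged+CF. Aged+CF 32 lay within the Aged values there, and the log2 fold change of 0.85 was no longer a DEG without Aged 33 (0.74), Aged+CF 30 (0.60) or Aged+CF 34 (0.73). Inha, a subunit of inhibin, overlapped fully, with 1542, 2253 and 2249 and 2191, 1214 and 2136 CPM. The DEGs of the list numbered 3, 1 and 2 higher without Aged 31, 33 and 34 and 1, 2 and 1 higher without Aged+CF 30, 32 and 34, with 1 lower DEG without Aged 34 and without Aged+CF 30.

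Theca cells form the outer shell of the follicle and respond to Hedgehog signals from granulosa cells. Of 10 genes that are targets of that signal or markers of theca cells, 6 were higher in Aged+CF and 4 lower. The median level of the list was -0.46, -0.45 and -0.48 in Aged 31, 33 and 34 and 0.01, -0.21 and 0.19 in Aged+CF 30, 32 and 34 on the log2 scale relative to the mean of Aged+CF, so by this median the 3 untreated ovaries were nearly equal and all below. The summed level had another order, with 3226, 4786 and 7361 CPM in Aged and 3971, 3833 and 4452 CPM in Aged+CF. Ptch1 (ENSMUSG00000021466, chromosome 13, 63508328 to 63573598), the Hedgehog receptor and itself a target, had 124, 84.8 and 83.3 CPM in Aged 31, 33 and 34 and 198, 169 and 183 CPM in Aged+CF 30, 32 and 34. Every treated ovary was above every untreated one and the call held in each fit (log2 fold change 0.91 ± 0.18, adjusted p = 0.15 by edgeR). The transcription factor Gli1, which overlaps Arhgap9 on the other strand, had 26.3, 18.7 and 24.8 and 40.9, 32.4 and 31.7 CPM, and its log2 fold change of 0.59 sat at the limit and was not a DEG without Aged 33 (0.46) or Aged+CF 30 (0.45). The androgen enzyme Cyp17a1 went the other way, with 16.9, 146 and 504 CPM in Aged and 21.4, 11.1 and 64.0 CPM in Aged+CF. Its value varied widely within each group, and the log2 fold change of -2.79 was -1.35 without Aged 34, -2.58 without Aged+CF 30 and -2.37 without Aged+CF 32, where it was not a DEG. In the whole list 3 genes were higher and 1 lower DEGs (4, 1 and 4 higher without Aged 31, 33 and 34, so the calls leaned on Aged 33), and the median was 0.58, or 0.20 without Aged+CF 34.

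**Figure D2:**
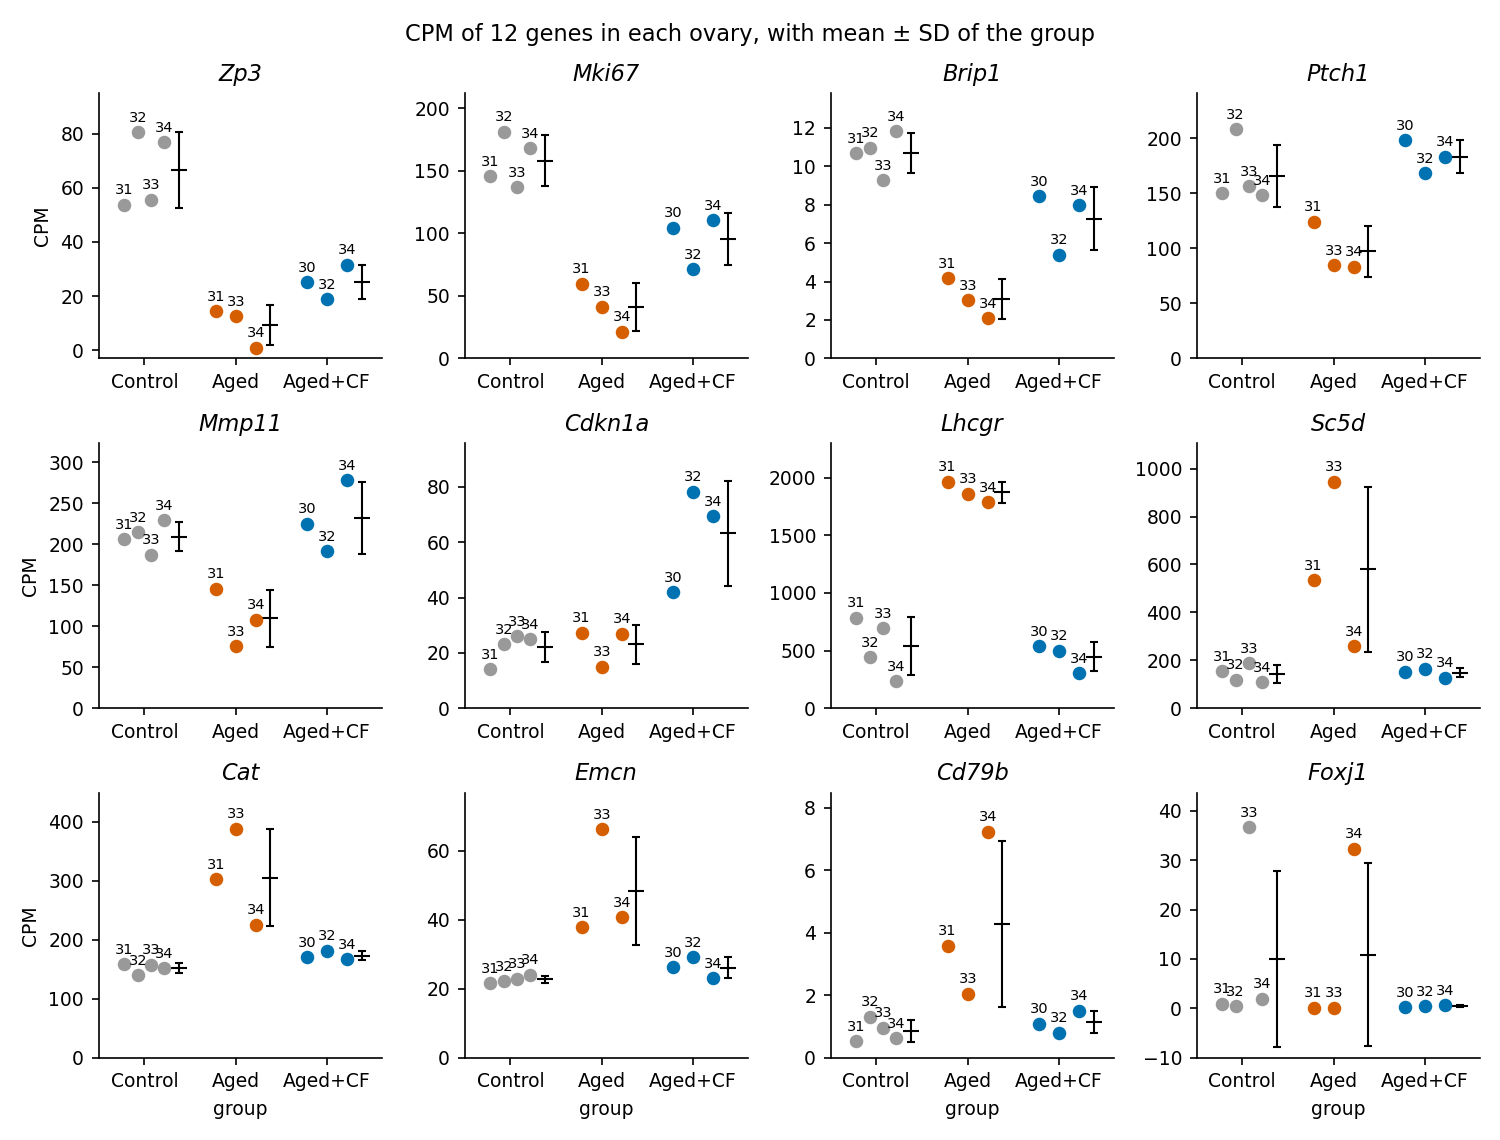
CPM of 12 genes in each of the 10 ovaries, with a point for each ovary, labelled by replicate, and a bar with whiskers for the mean ± SD of each group. For Ptch1, Brip1, Mmp11 and Lhcgr all Aged+CF ovaries lie on the same side of all Aged ovaries, while Foxj1 is high in Aged 34 and Control 33 alone.

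Collagen genes were mostly higher in Aged+CF, and matrix proteases had no common direction. Of 40 tested collagen genes, 30 were higher, with 5 higher and 1 lower DEGs, and the median was 0.31. Col9a2 (ENSMUSG00000028626, chromosome 4, 121039385 to 121055322), a chain of a fibril-associated collagen, had 7.99, 9.88 and 2.15 CPM in Aged, 22.4, 19.0 and 38.9 CPM in Aged+CF and 52.7 to 121 CPM in Control, so the treated ovaries lay between the other groups without overlap (log2 fold change 2.02 ± 0.51, adjusted p = 0.164 by edgeR). Col8a1, a short chain collagen of vessels, had 9.25, 3.03 and 4.63 CPM in Aged and 11.2, 15.97 and 13.5 CPM in Aged+CF, above the 3.87 to 8.35 CPM in Control, and both calls held in each fit. The fibrillar collagen Col3a1, the member with the most counts, had 1051, 548 and 1040.0 and 1108, 1283 and 1491 CPM, with the low value in Aged 33. The median of the collagens was 0.31, 0.08 and 0.60 without Aged 31, 33 and 34, and the higher DEGs numbered 9, 3 and 17 in those fits and 7, 5 and 3 without Aged+CF 30, 32 and 34. Aged 33 was thus low and Aged 34 the highest Aged ovary in collagen, with list levels of -0.98 and 0.05 on the log2 scale. That spread was wider than the difference between the groups, and Aged 34 lay within the Aged+CF levels of -0.15 to 0.18. Of 36 matrix proteases and TIMP inhibitors, 18 were higher and 18 lower, and 3 were higher and 1 lower DEGs with a median of 0.07 (5, 3 and 5 higher without Aged 31, 33 and 34, and 6 without Aged+CF 32). Mmp11 (ENSMUSG00000000901, chromosome 10, 75923222 to 75936496), a protease of remodelling stroma that overlaps Chchd10 on the other strand, had 146, 75.6 and 108 and 225, 192 and 278 CPM (log2 fold change 1.08 ± 0.22, adjusted p = 0.15 by edgeR). Adamts19, a protease of the gonads, had 38.5, 14.5 and 30.7 and 64.7, 58.8 and 52.5 CPM, and both genes were apart in every ovary and in each fit. Genes of ovulation and cumulus expansion showed no common direction, with a median of 0.09 over 12 genes (0.61 without Aged 34) and 2 higher DEGs, Edn2 among them (2, 1 and 4 without Aged 31, 33 and 34, and 2, 1 and 0 without Aged+CF 30, 32 and 34). The median turned to -0.10 without Aged 33 and to -0.19 without Aged+CF 34.

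Many luteal and steroid genes were lower in Aged+CF, above all against Aged 31 and 33. The corpus luteum makes progesterone, and its cells carry the receptor for luteinizing hormone, Lhcgr (ENSMUSG00000024107, chromosome 17, 88716481 to 88791990). Lhcgr had 1967, 1861 and 1789 CPM in Aged 31, 33 and 34, 536, 499 and 304 CPM in Aged+CF 30, 32 and 34 and 234 to 785 CPM in Control. The 3 untreated ovaries were nearly equal, and each was several times as high as any treated ovary (log2 fold change -2.07 ± 0.40, adjusted p = 0.15 by edgeR). No fit with an ovary left out moved it by much, with -2.04, -2.07 and -2.11 without Aged 31, 33 and 34. The luteal list as a whole did not share that evenness. Its summed level was 17070.3, 24765 and 7493 CPM in Aged 31, 33 and 34 and 7171, 11800.5 and 6047 CPM in Aged+CF 30, 32 and 34, so Aged 34 lay within the treated range. Hsd17b7, an enzyme of both estradiol and cholesterol synthesis, had 3873, 5643 and 156 CPM in Aged and 509, 209 and 203 CPM in Aged+CF, with Aged 34 below all treated ovaries. Its log2 fold change of -3.39 was not a DEG without Aged 33 (-2.73), Aged+CF 32 (-3.18) or Aged+CF 34 (-3.18). Of 10 luteal genes 3 were higher and 7 lower, 1 was lower without overlap, 3 were lower DEGs and the median was -0.68. Without Aged 31, 33 and 34 there were 2, 1 and 6 lower DEGs and medians of -0.68, -0.37 and -0.999, and without Aged 33 also 1 higher DEG. Leaving out Aged+CF 34 left 1 DEG. Of 14 steroid enzymes and carriers 3 were higher and 11 lower, the median was -0.52 and 2 were lower DEGs, Hsd17b7 and Cyp17a1 (2, 1 and 5 without Aged 31, 33 and 34, and 1, 3 and 1 without Aged+CF 30, 32 and 34). The median was -0.27 without Aged 33, and 0 of the 14 genes were lower without overlap.

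Cholesterol genes formed the list with the most DEGs among those lower in Aged+CF. Steroid cells make or import cholesterol as the raw material of progesterone, and the enzymes of the pathway are switched on together when sterols run low. All 26 genes were lower in Aged+CF, 18 were DEGs and the median log2 fold change was -1.19. Of the 26, 3 were lower without overlap, and these are Sc5d, Fdft1 and Msmo1, described below. The list's median level was 1.22, 1.84 and -0.30 in Aged 31, 33 and 34 and -0.07, 0.34 and -0.28 in Aged+CF 30, 32 and 34 on the log2 scale, so Aged 31 and 33 were high and Aged 34 was at the lower edge of the treated ovaries. Sc5d (ENSMUSG00000032018, chromosome 9, 42251595 to 42264256), a desaturase near the end of the pathway, had 533, 946 and 259.7 CPM in Aged and 151, 165 and 127 CPM in Aged+CF. It was apart in every ovary and in each fit (log2 fold change -1.97 ± 0.40, adjusted p = 0.15 by edgeR). Fdft1 (ENSMUSG00000021273, chromosome 14, 63145150 to 63179578), which makes squalene and overlaps Ctsb on the other strand, had 207, 199 and 117 CPM in Aged and 104, 70.4 and 53.8 CPM in Aged+CF without overlap (log2 fold change -1.20 ± 0.26, adjusted p = 0.159 by edgeR). Msmo1 (ENSMUSG00000031604, chromosome 8, 64718139 to 64733792), a sterol oxidase, had 362, 761 and 214 and 172, 207 and 119.6 CPM (log2 fold change -1.42, and -0.80 without Aged 33). In contrast, Hmgcs1, which starts the pathway and was added after its values were seen, had 1202, 1593 and 354 and 360.1, 637 and 363 CPM, with Aged 34 level with the lowest treated ovaries. Its log2 fold change of -1.21 was not a DEG without Control 33, Aged 31 (-1.12), Aged 33 (-0.79), Aged+CF 30 (-1.08) or Aged+CF 34 (-1.08). For the list, the count of DEGs was 12, 3 and 22 without Aged 31, 33 and 34, with medians of -1.11, -0.73 and -1.58, and 6, 18 and 5 without Aged+CF 30, 32 and 34. Without Aged 34, 16 of the genes also passed the adjusted threshold.

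Promoters of these genes often hold the NF-Y box and seldom the classical sterol element. Of the 26 genes, 18 had a promoter in the RefSeq table, and CCAAT was found on either strand in 16 of them, or 16 of their 22 promoters, against 37.4% of all promoters. The sterol element spelled TCACNCCAC was found in 1 of the 18 genes, Hmgcs1, or 1 of the 22 promoters, and in 1.24% of all promoters. The promoters of Sc5d (chr9:42264251-42264550, minus strand), Msmo1 (chr8:64733529-64733828, minus strand) and Hmgcs1 (chr13:119690101-119690400, plus strand), on GRCm38.p6, are shown because values of these genes are given above and Hmgcs1 holds both motifs. They run 5′ to 3′ along the gene, with matches to CCAAT, its reverse complement or the sterol element in capitals and no overlap between motifs.
Sc5d: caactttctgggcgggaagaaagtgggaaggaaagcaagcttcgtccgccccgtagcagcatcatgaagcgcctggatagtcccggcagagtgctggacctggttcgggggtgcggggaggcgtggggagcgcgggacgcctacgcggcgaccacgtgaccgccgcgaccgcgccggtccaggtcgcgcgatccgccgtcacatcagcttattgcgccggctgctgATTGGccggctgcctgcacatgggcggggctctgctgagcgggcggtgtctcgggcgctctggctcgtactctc
Msmo1: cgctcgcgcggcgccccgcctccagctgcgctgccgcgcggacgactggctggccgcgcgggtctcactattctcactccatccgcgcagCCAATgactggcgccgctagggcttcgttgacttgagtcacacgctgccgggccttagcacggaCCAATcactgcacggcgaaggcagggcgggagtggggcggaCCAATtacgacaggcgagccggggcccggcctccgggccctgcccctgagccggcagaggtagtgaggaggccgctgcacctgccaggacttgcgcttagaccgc
Hmgcs1: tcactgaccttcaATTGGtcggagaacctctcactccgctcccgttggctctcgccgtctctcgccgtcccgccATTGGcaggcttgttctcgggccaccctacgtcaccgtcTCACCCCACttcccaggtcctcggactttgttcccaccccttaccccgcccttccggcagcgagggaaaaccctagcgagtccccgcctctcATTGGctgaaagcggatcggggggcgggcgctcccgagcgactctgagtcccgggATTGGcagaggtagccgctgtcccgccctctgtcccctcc

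Mitochondrial and respiratory genes were lower in Aged+CF, mostly through Aged 33. All 13 genes encoded by the mitochondrial genome were lower, 7 were DEGs and the median was -0.59. Their summed level was 40340.0, 68266 and 35538 CPM in Aged 31, 33 and 34 and 34031, 32739.6 and 29778 CPM in Aged+CF 30, 32 and 34, so every untreated ovary was above every treated one but Aged 33 was far above all. The complex I subunit gene mt-Nd4, which overlaps mt-Nd4l on the same strand, had 4026, 6103 and 3423 CPM in Aged and 2844, 2864 and 2512 CPM in Aged+CF. Its log2 fold change of -0.72 was -0.44 and not a DEG without Aged 33. In that fit the list's median was -0.28, and it held 10, 0 and 11 DEGs without Aged 31, 33 and 34. Of 80 nuclear genes for the respiratory chain, 79 were lower in Aged+CF, 6 were DEGs and the median was -0.36. Cycs, the electron carrier cytochrome c, had 26.4, 38.3 and 27.7 CPM in Aged and 19.5, 19.3 and 20.6 CPM in Aged+CF, with the treated ovaries tightly grouped below (log2 fold change -0.64, and -0.45, not a DEG, without Aged 33). The median of the nuclear genes was -0.44, -0.07 and -0.53 without Aged 31, 33 and 34, with 14, 0 and 29 lower DEGs in those fits by edgeR and 4, 4 and 5 without Aged+CF 30, 32 and 34. Proteins of the mitochondrial ribosome had a median of -0.22 over 78 genes and -0.03 without Aged 33.

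Antioxidant enzymes were lower in Aged+CF. Of 26 genes that remove peroxides and superoxide, 9 were lower DEGs, 23 were lower in all and the median was -0.34. The peroxidase Prdx3 of mitochondria (ENSMUSG00000024997, chromosome 19, 60864051 to 60874556) had 313, 414 and 187 CPM in Aged and 164, 168 and 169.8 CPM in Aged+CF without overlap. Aged 34 lay close to the treated ovaries and the other untreated ones well above, and the call held in each fit (log2 fold change -0.87 ± 0.23, adjusted p = 0.169 by edgeR). Sod3, the superoxide dismutase outside cells, had the reverse order, with 163, 233 and 256 CPM in Aged and 130.5, 142 and 128 CPM in Aged+CF, and its log2 fold change of -0.70 was -0.58 and just short of a DEG without Aged 34. Cat, which splits hydrogen peroxide, had 303, 389 and 226 and 171, 182 and 167 CPM and was called in each fit. The list held 9, 4 and 9 lower DEGs without Aged 31, 33 and 34, with medians of -0.47, -0.15 and -0.38, and 7, 10 and 6 without Aged+CF 30, 32 and 34. Of 33 glutathione transferases and enzymes of glutathione synthesis, 25 were lower in Aged+CF, 2 were DEGs, Gstm6 and Gstm7, and the median was -0.25 (9, 3 and 4 DEGs without Aged 31, 33 and 34, and 5, 4 and 2 without Aged+CF 30, 32 and 34). These neighbours are paralogs and can share reads. Gstm7 had 44.6, 54.5 and 44.9 CPM in Aged and 22.6, 21.9 and 22.9 CPM in Aged+CF, so the groups were well apart and the treated ovaries nearly equal.

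Chaperones, which fold proteins and rescue them under stress, were all lower in Aged+CF, and their median did not rest on a single ovary. It was -0.39 over 15 genes, with -0.52, -0.43 and -0.36 without Aged 31, 33 and 34, 6 genes were lower without overlap and 3 were DEGs (5, 1 and 2 without Aged 31, 33 and 34, and 3, 2 and 5 without Aged+CF 30, 32 and 34). The mitochondrial chaperonin gene Hspd1 (ENSMUSG00000025980, chromosome 1, 55077835 to 55088243), which shares its start region with Hspe1, had 638, 757 and 415 CPM in Aged and 355, 379.8 and 389.6 CPM in Aged+CF. The treated ovaries were below all untreated ones (log2 fold change -0.69 ± 0.18, adjusted p = 0.17 by edgeR, not a DEG without Aged 33, where the value was -0.50). The heat shock element, searched on both strands as GAA NN TTC NN GAA, was found in 3 of 11 chaperone genes with a promoter, Hspd1, Hspe1 and Hsph1, and in 4 of the 16 promoters of the 11, and in 0.603% of all promoters. The Hspd1 promoter (chr1:55087883-55088182, minus strand, GRCm38.p6, RefSeq), shown because it holds the element on both strands as overlapping matches in capitals, runs 5′ to 3′ along the gene.
Hspd1: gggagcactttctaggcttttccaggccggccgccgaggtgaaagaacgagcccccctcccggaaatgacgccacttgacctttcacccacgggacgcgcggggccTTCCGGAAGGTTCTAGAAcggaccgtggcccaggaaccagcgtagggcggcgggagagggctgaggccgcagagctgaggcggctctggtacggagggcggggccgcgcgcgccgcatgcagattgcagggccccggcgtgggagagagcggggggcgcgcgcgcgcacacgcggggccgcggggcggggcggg

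Clustered histone genes were lower in Aged+CF although division genes were higher. Their messages lack the usual poly(A) tail, so their counts also reflect how the libraries were made, which was not tested. Of 70 such genes 27 were tested, 26 of these were lower and 12 were DEGs with a median of -1.14. H4c8 (ENSMUSG00000060981, chromosome 13, 23531050 to 23531519) had 7.40, 10.4 and 3.25 CPM in Aged and 1.61, 1.72 and 1.97 CPM in Aged+CF (log2 fold change -1.98 ± 0.46, adjusted p = 0.161 by edgeR). H2bc4 had 114, 154 and 88.1 and 52.5, 70.5 and 54.7 CPM, and in both genes the treated ovaries were below all untreated ones in each fit. Histone genes are near copies of each other, so single values are uncertain. The summed level was 709, 879 and 313 CPM in Aged 31, 33 and 34 and 265, 367 and 271 CPM in Aged+CF 30, 32 and 34, with Aged 34 within the treated range. The median was -0.84, -0.88 and -1.35 without Aged 31, 33 and 34 (10, 11 and 20 DEGs of 29, 30 and 29 tested). The octamer box ATTTGCAT was found in 5 of 22 promoters of histone genes and in 1.74% of all, and the E2F box TTTGGCGC in 6 of 43 promoters of replication genes and in 0.514% of all.

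Other housekeeping lists shifted little and mostly with Aged 33. Ribosomal proteins of the cytosol had a median of -0.12 over 81 genes and 0.15 without Aged 33, a change of sign. Proteasome subunits had a median of -0.23 over 38 genes (-0.04 without Aged 33) and 2 lower DEGs, both subunits of the immunoproteasome. Psmb9, which overlaps Tap1 on the other strand, had 12.6, 21.2 and 18.9 CPM in Aged and 8.08, 9.48 and 13.0 CPM in Aged+CF, and Psmb10 had 35.3, 50.9 and 44.9 and 25.1, 25.2 and 33.3 CPM, the second not a DEG without Aged 33 (-0.53) or Aged+CF 32 (-0.58). Genes of fatty acid oxidation had a median of -0.23 over 24 genes and those of glycolysis -0.12 over 18. Lysosomal genes had a median of -0.17 over 32 genes and 3 lower DEGs (6, 3 and 4 without Aged 31, 33 and 34). The proton pump subunit Atp6v0d2, known from osteoclasts and foamy macrophages, had 30.4, 30.4 and 68.8 CPM in Aged and 21.9, 15.4 and 18.8 CPM in Aged+CF, with Aged 34 highest, and its log2 fold change of -1.21 was -0.72 without Aged 34.

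Vessel genes were lower in Aged+CF, with a median that hardly hung on any ovary and calls that did. All 14 endothelial markers were lower, 6 without overlap, 3 were DEGs and the median was -0.43, with -0.45, -0.37 and -0.47 without Aged 31, 33 and 34. Their level relative to the mean of Aged+CF was 0.37, 0.56 and 0.24 in Aged 31, 33 and 34 and -0.01, -0.08 and 0.05 in Aged+CF 30, 32 and 34 on the log2 scale. Emcn (ENSMUSG00000054690, chromosome 3, 137341067 to 137432185), a sialomucin of capillary endothelium, had 37.8, 66.3 and 40.7 CPM in Aged 31, 33 and 34, 26.3, 29.1 and 23.02 CPM in Aged+CF 30, 32 and 34 and 21.7 to 24.1 CPM in Control. Aged 33 was the highest, the treated ovaries were near the young ones, and the log2 fold change of -0.89 ± 0.20 (adjusted p = 0.161 by edgeR) was -0.59 without Aged 33. Eng, a TGF-beta co-receptor of endothelium that overlaps Fpgs on the other strand, was the member with the most counts and had 172, 180.0 and 158 CPM in Aged and 133, 113 and 122 CPM in Aged+CF, apart by less than the fold limit (log2 fold change -0.47). Pecam1, the adhesion protein CD31, had 99.9, 111 and 100.1 and 81.4, 72.4 and 79.4 CPM, also without overlap (log2 fold change -0.42 ± 0.13, adjusted p = 0.205 by edgeR). The VEGF receptor gene Kdr overlapped, with 161, 189 and 115 and 106, 126 and 99.2 CPM. The list held 2, 1 and 4 lower DEGs without Aged 31, 33 and 34 and 3, 4 and 2 without Aged+CF 30, 32 and 34. Angiogenic ligands and their receptors had a median of -0.19 over 13 genes, and 1 was a lower DEG.

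Red cell genes, a measure of blood left in the tissue, were lower as well. Of 6 tested erythroid genes all were lower and 4 were DEGs, and the median was -1.36. Their summed level was 418, 639 and 265 CPM in Aged 31, 33 and 34 and 145, 109 and 260.3 CPM in Aged+CF 30, 32 and 34, against 81.6, 113, 89.8 and 72.6 CPM in Control 31, 32, 33 and 34. Hba-a1, the member with the most counts, had 182, 277 and 117 CPM in Aged and 66.0, 47.4 and 115 CPM in Aged+CF, and Aged 34 was only just above Aged+CF 34. Hemoglobin genes are paralogs that share reads. The median was -1.47, -0.96 and -1.67 without Aged 31, 33 and 34. How far blood content bears on the other differences was not tested.

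Lymphocyte genes were lower in Aged+CF, and most of that came from Aged 34. Among 12 tested B and plasma cell markers 7 were lower and 1 higher DEGs with a median of -1.63, which was -0.33 with 3 lower DEGs without Aged 34, when the number tested was again 12. The list's level was 0.31, 0.32 and 2.23 in Aged 31, 33 and 34 and -0.004, -0.13 and 0.07 in Aged+CF 30, 32 and 34 on the log2 scale relative to the mean of Aged+CF. Its summed level, 448, 642 and 395 CPM in Aged and 277, 696 and 481 CPM in Aged+CF, shows nothing of this, as its member with the most counts is Sdc1, which epithelia also make. Cd79b (ENSMUSG00000040592, chromosome 11, 106311341 to 106314762), a chain of the B cell receptor, had 3.58, 2.05 and 7.22 CPM in Aged and 1.09, 0.804 and 1.50 CPM in Aged+CF. All untreated ovaries were above all treated ones, with Aged 34 on top, and the call held in each fit (log2 fold change -1.91 ± 0.50, adjusted p = 0.169 by edgeR, and -1.32 without Aged 34). Ms4a1, the B cell protein CD20, had 0.775, 1.06 and 4.91 and 0.516, 0.287 and 0.328 CPM (log2 fold change -2.57, and -1.28 without Aged 34). Immunoglobulin genes, whose reads are easily placed on the wrong segment, were tested in 17 of 396 cases, and 196 had no count in any old ovary. Their summed level was 421, 42.3 and 3397 CPM in Aged 31, 33 and 34 and 96.4, 103 and 56.5 CPM in Aged+CF 30, 32 and 34, so Aged 33 was below every treated ovary while Aged 34 was far above all. Ighm, the heavy chain of IgM, made up much of it, with 115, 9.59 and 1622 and 15.0, 17.6 and 12.6 CPM, and its log2 fold change of -5.28 was -2.07 without Aged 34. The list had 8 lower DEGs and a median of -2.81, values of the few genes that passed the filter, some of them mainly through Aged ovaries in which they are high. These values are therefore not read as a difference between the groups, and 0 of the 17 genes were lower without overlap. Without Aged 31, 33 and 34 the filter let through 21, 39 and 18 of these genes, so the DEG counts of those fits are not compared. The median of the 18 genes without Aged 34 was -1.24, with the same limit.

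T and NK cell markers had a median of -1.04 over 18 genes and 8 lower DEGs. Without Aged 31, 33 and 34 there were 10 of 20, 10 of 19 and 2 of 19 tested. Without Aged+CF 30, 32 and 34 there were 1, 3 and 8, each of 20 tested. The summed level of the list was 42.8, 49.7 and 85.7 CPM in Aged 31, 33 and 34 and 26.1, 30.5 and 32.9 CPM in Aged+CF 30, 32 and 34, without overlap. Cd3e, a signalling chain of the T cell receptor, had 3.46, 2.26 and 8.05 CPM in Aged and 1.55, 2.01 and 1.83 CPM in Aged+CF, and its log2 fold change of -1.36 was -0.69 and not a DEG without Aged 34. Mast cell markers were lower in all 5 tested genes, with 4 DEGs and a median of -2.15. That rested on Aged 34, since the summed level was 14.8, 32.03 and 223 CPM in Aged 31, 33 and 34 and 25.5, 23.1 and 9.75 CPM in Aged+CF 30, 32 and 34, and the median was -0.13 without Aged 34. Tpsb2, the tryptase with the most counts of the list, had 6.38, 13.5 and 90.2 and 9.23, 7.64 and 4.12 CPM, and its log2 fold change of -2.40 was not a DEG without Aged 34 (-0.52) or Aged+CF 34 (-2.13). Without Aged+CF 30, 32 and 34 the mast cell list had 2, 1 and 0 lower DEGs, the 0 from the fit without Aged+CF 34, in which edgeR gave 5 of 5 lower values and a median of -1.82. Of 10 neutrophil markers 1 was tested, Csf3r, with a log2 fold change of -0.26, and Ly6g and Elane had no count in any old ovary.

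Antigen presentation was lower in Aged+CF as well. All 10 class II genes were lower, 4 were DEGs and the median was -0.60 (6, 6 and 1 DEGs and medians of -0.73, -0.81 and -0.36 without Aged 31, 33 and 34, and 2, 1 and 6 DEGs and medians of -0.59, -0.41 and -0.90 without Aged+CF 30, 32 and 34). The summed level was 816, 746 and 1338 CPM in Aged and 619.8, 448 and 855 CPM in Aged+CF, where Aged+CF 34 lay above Aged 31 and 33. The class II chain H2-Eb1 had 112, 102 and 175 and 79.1, 56.6 and 111 CPM, and its log2 fold change of -0.66 was not a DEG without Aged 34 (-0.40), Aged+CF 30 (-0.64) or Aged+CF 32 (-0.45). Among class I and processing genes the median was -0.22 over 13 genes and 3 were lower DEGs. B2m (ENSMUSG00000060802, chromosome 2, 122147686 to 122153083), the light chain of class I molecules, had 362, 490.1 and 509 CPM in Aged and 253, 278 and 307 CPM in Aged+CF without overlap in each fit (log2 fold change -0.70 ± 0.14, adjusted p = 0.15 by edgeR). Macrophage markers split, with 1 higher and 2 lower DEGs (4, 4 and 0 lower without Aged 31, 33 and 34, and 1, 1 and 1 without Aged+CF 30, 32 and 34) and a median of -0.22 over 16 genes. Lyz2, the lysozyme of macrophages and the marker with the most counts, had 398, 437 and 958 CPM in Aged and 359, 332 and 330.1 CPM in Aged+CF, where Aged 34 alone was high and the log2 fold change of -0.81 was -0.31 without it, not a DEG. Cx3cr1, the fractalkine receptor of resident macrophages, was higher in Aged+CF, with 5.37, 13.4 and 5.96 CPM in Aged and 18.7, 15.9 and 24.3 CPM in Aged+CF in each fit (log2 fold change 1.26 ± 0.32, adjusted p = 0.166 by edgeR). Of 44 chemokines and receptors 1 was a higher DEG, Cx3cr1, and 7 were lower, and the median was -0.38 (11, 9 and 3 lower DEGs and medians of -0.51, -0.41 and -0.05 without Aged 31, 33 and 34, and 5, 3 and 9 lower DEGs without Aged+CF 30, 32 and 34, with 45 to 48 genes tested in these fits). Ccl17, which draws T cells, had 1.97, 4.23 and 0.717 CPM in Aged and 0.287, 0.402 and 0.703 CPM in Aged+CF, with Aged 34 close to Aged+CF 34, and its log2 fold change of -2.26 was -1.51 without Aged 33. Complement genes had a median of -0.30 over 22 genes, which was 0.04 without Aged 34, and interferon-stimulated genes one of -0.004 over 29.

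Markers of tissue around the ovary differed mostly between single ovaries. Motile cilia line the oviduct, and their 11 tested genes were all lower in Aged+CF, 2 of them without overlap. These genes had a median log2 fold change of -1.31, which was 0.12 without Aged 34. Their summed level was 31.6, 38.4 and 162 CPM in Aged 31, 33 and 34, 28.7, 32.1 and 30.6 CPM in Aged+CF 30, 32 and 34 and 38.8, 40.8, 234 and 37.7 CPM in Control 31, 32, 33 and 34, with Tppp3 as the member with the most counts. Aged 34 and Control 33 were thus the ovaries with high cilia RNA. The cilia regulator Foxj1 had 0.119, 0.141 and 32.3 and 0.229, 0.459 and 0.609 CPM, and the single DEG of the list, the axoneme gene Tekt1, had 0.119, 0 and 3.58 and 0, 0.115 and 0.0937 CPM. The log2 fold change of Tekt1 was -4.03 and became 0.12 without Aged 34, and the call was also lost without Control 32 or 34 or any 1 Aged+CF ovary. Hydin, not a DEG, had 1.25, 2.12 and 13.5 CPM in Aged and 0.917, 0.689 and 0.562 CPM in Aged+CF. Its groups did not overlap, and its log2 fold change of -2.96 was -1.23 without Aged 34. Oviduct and uterine epithelium genes, led by the oviduct glycoprotein Ovgp1, had a summed level of 37.0, 6.35 and 335 CPM in Aged 31, 33 and 34 and 81.9, 45.9 and 30.7 CPM in Aged+CF 30, 32 and 34, and their median of -0.80 over 8 genes became 1.16 without Aged 34. Ovgp1 had 245 CPM in Aged 34, 298 CPM in Control 33 and 31.2 CPM in Aged+CF 30, against 1.28 to 6.36 CPM in the other ovaries. Whether tissue was carried over, and what part it had in the other differences, was not tested.

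Stroma and muscle markers followed Aged 34 too. Stromal fibroblast genes had summed levels of 1562, 1214 and 3788 CPM in Aged 31, 33 and 34 and 1883, 1808 and 1897 CPM in Aged+CF 30, 32 and 34, and their median was -0.31 with all ovaries and 0.40 without Aged 34 over 10 genes. Dcn, the proteoglycan decorin and the member with the most counts, had 331, 233 and 1226 and 445, 431 and 456 CPM, with Aged 31 and 33 below all treated ovaries and Aged 34 far above. Smooth muscle genes, led by Acta2, had summed levels of 1548, 1789.7 and 3444 CPM in Aged and 2143, 1468 and 2129 CPM in Aged+CF, and a median of -0.31 that became 0.27 without Aged 34. For the ovarian surface epithelium the odd ovary was Aged 33. The summed level of its 12 genes was 308, 53.4 and 451 CPM in Aged 31, 33 and 34 and 420.1, 386 and 205 CPM in Aged+CF 30, 32 and 34. The median of 0.31 was -0.06 without Aged 33, 0.51 without Aged 31 and 0.99 without Aged 34. Upk3b, a membrane protein of mesothelium with the most counts of the list, had 46.2, 1.62 and 56.8 and 58.0, 63.1 and 28.1 CPM.

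Markers of fat, pancreas and kidney were read as well, and many of the pancreas and kidney markers had few or no counts. Whether such tissue was present was not tested. Adipocyte genes, led by Plin4, had summed levels of 896, 522 and 548 CPM in Aged 31, 33 and 34 and 529, 535 and 434 CPM in Aged+CF 30, 32 and 34, a median of -0.68 over 13 genes and 2 lower DEGs, with medians of -0.92, -1.07 and -0.26 without Aged 31, 33 and 34. The sum follows Plin4, while the median level of the list was 0.03, -0.40 and 1.41 in Aged 31, 33 and 34 and -0.11, 0.16 and 0.12 in Aged+CF 30, 32 and 34 on the log2 scale, so Aged 34 alone was high. Thrsp, a regulator of fat synthesis, had 35.5, 31.5 and 28.6 CPM in Aged and 12.9, 6.78 and 12.9 CPM in Aged+CF without overlap in each fit (log2 fold change -1.55 ± 0.39, adjusted p = 0.162 by edgeR). Of 10 pancreatic acinar markers 5 were tested. The summed levels of the list were 50.7, 45.6 and 13.8 CPM in Aged and 15.5, 11.7 and 12.7 CPM in Aged+CF. Among those not tested, Prss1 had no count in any old ovary, and Prss2, Cpb1, Pnlip and Amy2a5 had at most 4. The median of the tested genes was -1.06 (-0.35 without Aged 31). Cela3b, an elastase, had 5.67, 14.1 and 6.45 and 0.860, 0.976 and 0.984 CPM without overlap in each fit, whereas Cpa1, a carboxypeptidase, had 2.56, 2.26 and 0.0551 and 3.33, 2.58 and 4.17 CPM, with Aged 34 lowest (log2 fold change 1.06, not a DEG, and 0.46 without Aged 34). Of 8 kidney tubule genes 3 were tested, with a median of -0.31 that was 0.58 without Aged 34. The summed levels of the list, mostly Lrp2, were 4.41, 1.90 and 13.5 CPM in Aged and 6.36, 4.31 and 4.22 CPM in Aged+CF. Among those not tested, Umod had no count in any old ovary, and Slc34a1, Slc12a1, Slc12a3 and Kap had at most 7.

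Lists of signal genes held a few DEGs each. Immediate early genes, which answer growth factors and handling within minutes, had a median of 0.38 over 24 genes, 17 of them higher, 7 higher and 1 lower without overlap, with 4 higher and 1 lower DEGs (3, 2 and 4 higher DEGs and medians of 0.31, 0.29 and 0.44 without Aged 31, 33 and 34). Egr3 had 3.70, 2.33 and 5.73 CPM in Aged and 10.1, 9.02 and 12.2 CPM in Aged+CF, and Ier3 had 7.99, 11.4 and 14.7 and 20.5, 18.6 and 27.1 CPM, both apart in each fit. Klf2, a factor of endothelium under flow, was lower, with 68.8, 66.7 and 93.3 CPM in Aged and 44.3, 45.1 and 44.8 CPM in Aged+CF and the treated ovaries nearly equal (log2 fold change -0.77 ± 0.17, adjusted p = 0.161 by edgeR). In the IGF system, which amplifies FSH action in follicles, the median was -0.10 over 16 genes with 1 higher and 2 lower DEGs and 4 higher and 4 lower without overlap. That median was -0.17, -0.32 and 0.20 without Aged 31, 33 and 34. Igfbp3, a binding protein that withholds IGF, had 70.4, 80.9 and 64.5 CPM in Aged and 44.8, 35.4 and 35.9 CPM in Aged+CF, and Pappa, a protease that frees IGF, had 28.6, 62.1 and 31.4 and 15.5, 11.9 and 7.78 CPM, both lower without overlap in each fit (log2 fold changes -0.89 and -1.79). Receptors of growth factors found in fat extract had a median of -0.01 over 19 genes (0.24 without Aged 34) and 1 lower DEG. Clock genes had a median of 0.01 over 16 genes, and Bhlhe41, a repressor of the clock, was the DEG, with 32.03, 26.2 and 31.9 and 20.98, 17.6 and 12.2 CPM.

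Genes of senescence and genes whose products the study measured were read singly. Senescence and p53 target genes had a median of -0.02 over 24 genes, with 2 higher DEGs, Cdkn1a and Lmnb1, and 1 lower DEG, Igfbp3. The lamin gene Lmnb1 had 57.3, 58.3 and 39.9 CPM in Aged and 82.4, 74.4 and 89.7 CPM in Aged+CF, and its log2 fold change of 0.66 was 0.49 and not a DEG without Aged 34. Cdkn1a (ENSMUSG00000023067, chromosome 17, 29090976 to 29100727), the cell cycle inhibitor p21, had 27.3, 15.0 and 27.0 CPM in Aged, 41.9, 78.2 and 69.4 CPM in Aged+CF and 14.1 to 25.9 CPM in Control. All treated ovaries were above all untreated and all young ones, in each fit (log2 fold change 1.45 ± 0.31, adjusted p = 0.159 by edgeR). The other inhibitor, Cdkn2a, overlapped, with 3.996, 5.29 and 2.095 CPM in Aged and 1.95, 2.07 and 3.75 CPM in Aged+CF (log2 fold change -0.54). Of the further genes, Trp53 had a log2 fold change of 0.21, H2ax 0.20, Sirt2 -0.05, Ccl2 1.30, Ccl4 -0.45, Il1b -1.35 and Amh 1.08, with edgeR adjusted p between 0.315 and 0.906. Il1b, the inflammatory cytokine, and Amh had groups apart without being DEGs, and 2.45, 1.34 and 1.38 CPM in Aged stood against 0.688, 0.517 and 0.797 CPM in Aged+CF for Il1b.

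Across the lists, each untreated ovary pulled in its own direction. Leaving out Aged 34 moved the medians of 19 of the 60 lists by more than the SD of the list's level between ovaries, Aged 33 those of 5 and Aged 31 those of 3. Of the 36 lists with a median of at least 0.3 in size, 6 changed sign without Aged 34 (motile cilia, oviduct and uterine epithelium, kidney tubule, smooth muscle, stromal fibroblasts and complement), 1 without Aged 33 (ovarian surface epithelium) and none in the fit without Aged 31 or in the fits without a treated ovary. Oocyte, mitosis, B cell, mast cell, cilia and stroma lists were thus shaped by Aged 34, and mitochondrial, respiratory, ribosomal and surface epithelium lists by Aged 33. Luteal, cholesterol and histone lists set Aged 31 and 33 against all other old ovaries. Endothelial genes, Hedgehog targets with theca genes, homologous recombination genes and chaperones kept a similar median whichever Aged ovary was left out. Except for chaperones, these medians moved more under other processing, as given below. The median of Hedgehog targets and theca genes was also 0.20 without Aged+CF 34.

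**Figure D3:**
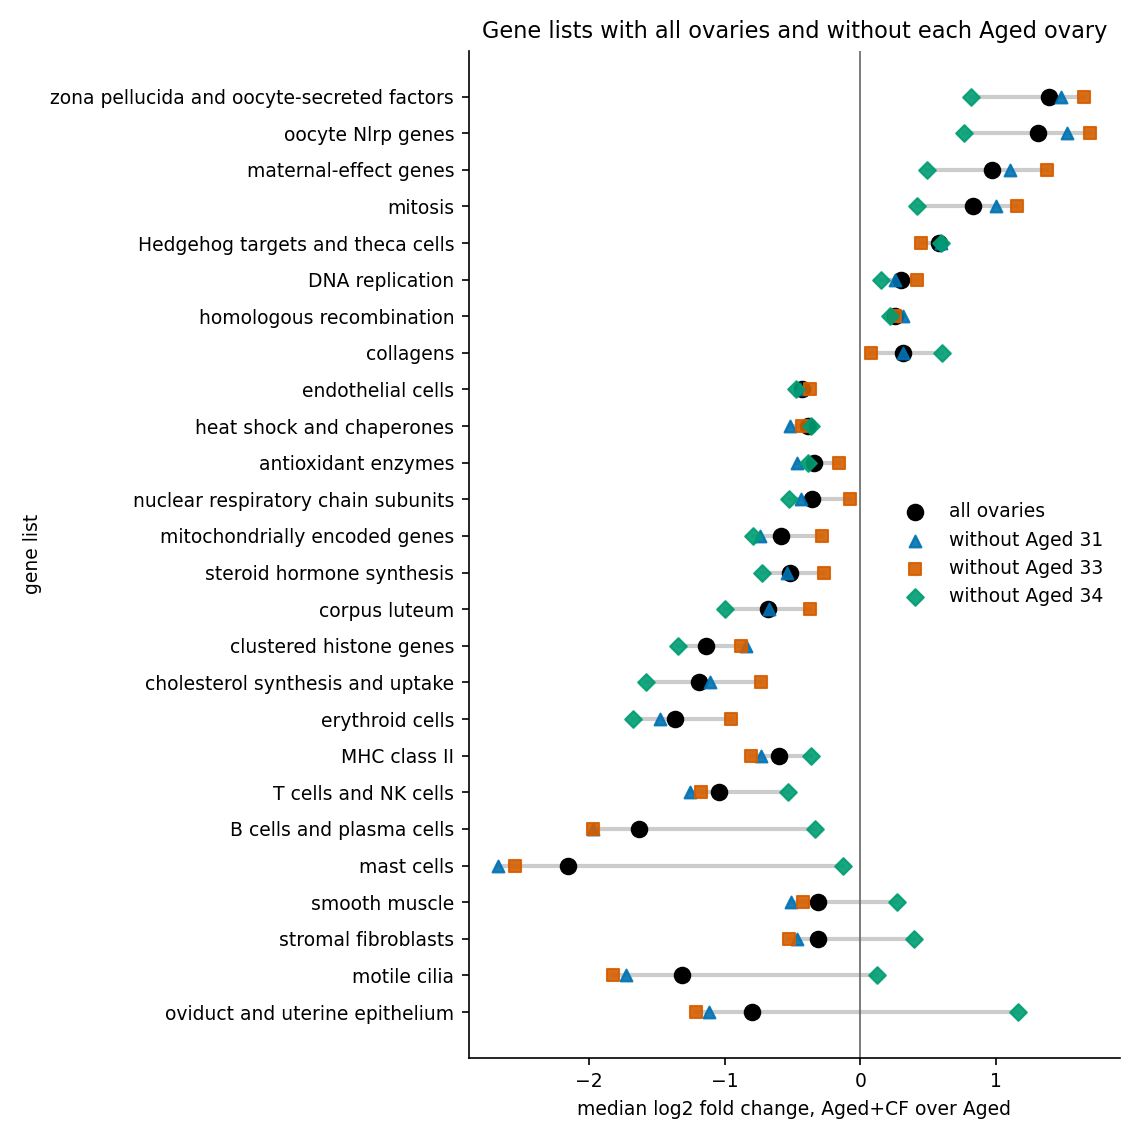
Median log2 fold change of Aged+CF over Aged for 26 gene lists, with all ovaries (black circles) and without Aged 31, 33 or 34 (coloured symbols), joined by a grey line for each list. The symbols for endothelial cells lie between -0.47 and -0.37, while those for oviduct and uterine epithelium run from -1.21 to 1.16.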

How the data were processed

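The deposited counts and FPKM values come in 1 table of 55487 genes and were made by the authors. GEO's notes name TopHat, Cufflinks 2.1.1 and GRCm38.p4, but neither the counting tool nor its handling of strand. No test used the FPKM values. All 10 ovaries were fitted together in edgeR 4.0 (R 4.3; filterByExpr, TMM, quasi-likelihood test), with adjustment by Benjamini and Hochberg, and Aged+CF was tested against Aged; the code was tested on simulated data. Alternatives used only the 6 old ovaries, DESeq2 1.42 size factors, no filter, the replicate number as a block, and each ovary left out. Further ones were the DESeq2 Wald test on unfiltered counts and limma 3.58 voom with a weight per group. The text describes 60 gene lists (1776 members in the table, 1246 tested) by counts and medians. In some lists the number tested differs between fits that leave an ovary out. Named genes were the 10 largest rises and 10 largest falls among DEGs without overlap at a mean of at least 1 CPM, up to 10 genes at adjusted p, up to 4 members of each list by p and its most abundant member, up to 5 genes by p at adjusted p in each fit without an Aged ovary, and genes the study measured; some were left out. Members and lists were chosen with earlier results of these data known. Coordinates and gene types follow GENCODE M21. Promoters follow RefSeq for GRCm38.p6.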

Additional observations from a re-analysis of the deposited data

Results flagged for a closer look

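In each list the level of the 4 Control ovaries was read for a single ovary apart from the others, by the gap to its nearest neighbour as a share of the range. Of 60 lists, 3 passed the critical value of Dixon for groups of 4, and chance flags about 1 in 20 groups. For motile cilia, Control 33 stood high with a share of 0.857 (levels 0.39, 0.18, 2.97 and 0.58 in Control 31, 32, 33 and 34, on the log2 scale relative to the mean of Aged+CF). For B cells and plasma cells, Control 32 stood high with a share of 0.918 (-0.39, -0.28, -0.40 and -0.39). For MHC class II, Control 31 stood low with a share of 0.845, within a very narrow range (-0.49, -0.44, -0.44 and -0.43). The groups of 3, Aged and Aged+CF, were not read this way, and the cause of these levels was not tested.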

How the results depend on the processing

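The full comparison gave 1509 DEGs, 1 gene at adjusted p and 3520 genes without overlap. With the replicate number as a block, the replicate block fit gave 888 DEGs and 0 at adjusted p by edgeR. The compared groups share only the number 34, so it does not pair them. In that fit Cdkn2a had a log2 fold change of 0.43. With only the 6 old ovaries in the fit there were 1011 DEGs. Limma voom with a weight per group gave 1042 DEGs, 567 higher and 475 lower. At adjusted p there were 2 genes with only the 6 old ovaries, 2 without a filter on low counts and 2 with limma voom. The DESeq2 Wald test, run on 36618 genes without that filter, gave 445. With 1 ovary left out at a time there were 1170 to 2360 DEGs, 1 to 556 genes at adjusted p, and 3494 to 7451 genes without overlap. Genes without overlap become more frequent by construction when a group holds 2 ovaries.

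Of 156 genes examined singly, the log2 fold changes of 8 changed sign with an ovary left out, and ran from -0.30 to 0.10 for Inha, -5.19 to 1.70 for Foxj1, -4.57 to 0.12 for Tekt1, -4.38 to 2.84 for Ovgp1, -0.0471 to 1.04 for Upk3b, -0.80 to 0.64 for Dcn, -1.71 to 1.06 for Dpt and -0.16 to 0.000816 for Sirt2. The cause was not tested. Of the 156 genes, 114 were DEGs, of which 51 kept their call in every alternative and 73 in every fit with an ovary left out. DESeq2 size factors left 154 of the 156 genes unchanged, no filter 149, the Wald test 140, only the old ovaries 133, limma voom 129 and the replicate block 102. Leaving out Aged 31, 33 or 34 left 141, 124 and 124 unchanged, and Aged+CF 30, 32 or 34 left 136, 145 and 136.

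Of the 36 lists with a median of at least 0.3 in size, none changed sign with DESeq2 size factors, no filter or the Wald test. Synaptonemal complex and kidney tubule genes did with only the old ovaries in the fit, and oviduct and uterine epithelium and kidney tubule genes with limma voom. Ovarian surface epithelium, adipocytes and immediate early genes did so under the replicate block, which moved 12 of the 60 medians by more than the SD between ovaries. Of medians that moved so far or changed sign, the block gave -0.34 for cholesterol genes, -0.19 for immediate early genes and 0.37 for adipocytes. Limma voom gave 0.06 for oviduct and uterine epithelium and 0.57 for kidney tubule. With only the old ovaries the synaptonemal complex had -0.07. Over all alternatives that left out no single ovary, the median ran from -0.69 to -0.11 for luteal and -0.53 to -0.17 for steroid genes. It ran from -0.44 to -0.21 for endothelial genes and from 0.33 to 0.58 for Hedgehog targets and theca cells. For homologous recombination it ran from 0.15 to 0.30 and for chaperones from -0.46 to -0.39.

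The groups hold 3 ovaries each, and the Aged ovaries differ more among themselves than the others do. Whole-ovary RNA does not separate cell number from RNA per cell. Genes with few counts carry wide errors, and reads of genes that share exons or are close paralogs are not told apart. The ovaries' stage of the cycle and the amount of adjoining tissue are not given.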
